A study of Homo sapiens with 15 samples.

Results

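PDGFA, PDGFB, PDGFC and PDGFD encode the chains of platelet-derived growth factor, PDGFRA and PDGFRB encode its receptors, HGF encodes hepatocyte growth factor and MET encodes the HGF receptor. These 8 genes were chosen by symbol, not by their values, out of 17138 genes listed in either of the 2 gene tables. All 8 were listed in the MRC5 table, and 7 in the H196 table. The H196 table used here has no HGF row, and HGF in H196 was not analysed here. MRC5 cells are fibroblasts of the human lung that grow as a line. H69 and H196 are lines of small cell lung cancer (SCLC), H69 of neuroendocrine and H196 of non-neuroendocrine type. Poly(A) RNA was sequenced from MRC5 grown alone (MRC5_Mo), from MRC5 grown for a week with H69 (MRC5_CoH69) or with H196 (MRC5_CoH196), from H196 grown alone (H196_Mo) and from H196 grown with MRC5 (H196_Co), with 3 libraries in each of the 5 groups. The partner sat on a porous insert above the sequenced cells, so that the lines shared medium and had no contact. H69 itself was not sequenced. The labels give no drug and no genetic change for any group. MRC5 and the SCLC lines were maintained in different media, and the medium of the co-cultures is not given in the sources used here, so a medium change and the presence of the partner cannot be told apart. The study describes the libraries as parallel replicates, and nothing says that they came from separate cultures. The p-values therefore measure the spread between these libraries only.

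PDGF chains form secreted dimers that bind and pair receptor tyrosine kinases on mesenchymal cells. PDGFRA binds the A, B and C chains, and PDGFRB binds the B and D chains. PDGF-C and PDGF-D are secreted in a latent form and become active once a protease removes an inhibitory domain. HGF is a product of fibroblasts and other mesenchymal cells that is also activated by proteolysis, and MET is its receptor tyrosine kinase, best known from epithelial and tumour cells. In lung tissue both systems carry signals between stroma and epithelium.

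In the authors' GRCh38.p13 annotation PDGFA spans chr7:497245-520668, PDGFB chr22:39221869-39279897, PDGFC chr4:156758131-156972148 and PDGFD chr11:103907189-104164147. PDGFRA spans chr4:54229127-54301888 and PDGFRB chr5:150113839-150155873. HGF spans chr7:81690265-81770438 and MET chr7:116672196-116798386. The promoter windows of the ligands and receptors whose mRNA moved most in the fibroblasts, where RefSeq gives one, are shown as context, from 250 bases before to 20 bases after the annotated start, 5′ to 3′ on the coding strand. Capitals mark ACGTG or GCGTG on either strand, the core letters of the hypoxia response element. The windows lie in GRCh38.p14 at chr7:81770028-81770297 for HGF, chr11:104164128-104164397 for PDGFD, chr5:150155826-150156095 for PDGFRB and chr7:116671946-116672215 for MET.
HGF: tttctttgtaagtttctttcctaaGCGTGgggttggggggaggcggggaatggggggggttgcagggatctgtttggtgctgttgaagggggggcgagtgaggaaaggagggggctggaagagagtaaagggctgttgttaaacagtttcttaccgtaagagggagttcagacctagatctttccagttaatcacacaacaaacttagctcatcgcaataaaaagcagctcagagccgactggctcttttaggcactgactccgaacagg
PDGFD: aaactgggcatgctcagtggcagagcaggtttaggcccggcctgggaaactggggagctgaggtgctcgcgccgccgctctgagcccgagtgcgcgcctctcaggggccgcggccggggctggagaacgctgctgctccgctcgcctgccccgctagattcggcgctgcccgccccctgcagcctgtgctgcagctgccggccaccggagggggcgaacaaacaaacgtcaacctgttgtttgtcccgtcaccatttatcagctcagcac
PDGFRB: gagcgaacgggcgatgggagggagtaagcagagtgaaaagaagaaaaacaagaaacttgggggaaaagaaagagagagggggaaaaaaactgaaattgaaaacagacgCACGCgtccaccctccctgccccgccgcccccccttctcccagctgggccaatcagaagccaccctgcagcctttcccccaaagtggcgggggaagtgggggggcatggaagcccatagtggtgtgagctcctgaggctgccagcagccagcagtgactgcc
MET: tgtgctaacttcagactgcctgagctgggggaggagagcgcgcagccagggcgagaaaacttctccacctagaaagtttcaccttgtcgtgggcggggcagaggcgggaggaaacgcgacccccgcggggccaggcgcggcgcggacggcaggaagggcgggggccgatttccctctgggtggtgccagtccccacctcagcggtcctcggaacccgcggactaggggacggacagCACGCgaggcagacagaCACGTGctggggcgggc
The MET window was 68.9% G or C and held GCGTG 14 bases before the start and, just after it, the palindrome CACGTG, which carries ACGTG once on each strand, the pair overlapping. The HGF and PDGFRB windows each held GCGTG once, 226 and 142 bases before the start, with 50.7% and 58.9% G or C. The PDGFD window, with 67.4% G or C, held neither. RefSeq windows were matched for 6 of the 8 genes, 10 windows in all, and PDGFB and PDGFC were not matched. None of the PDGFRA windows held either motif, and of the 4 PDGFA windows 3 held GCGTG and none ACGTG. Of 35116 windows of this length across all genes, 19.7% held ACGTG, 33.9% held GCGTG and 45.3% held at least one of them, with a median of 58.1% G or C. These matches describe letters only.

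The libraries held 18476890 to 19170560 counts for MRC5 and 16073597 to 17358349 for H196. The 9 fibroblast markers were all at 1 FPKM (fragments per kilobase of gene, scaled to a common total of fragments) or more in the MRC5 groups, and their summed level was 5900 to 6560 FPKM in MRC5_Mo, 6740 to 6910 in MRC5_CoH69 and 3350 to 3530 in MRC5_CoH196. In H196 the same list summed to 3.45 to 4.44 FPKM. 3 of 9 neuroendocrine markers, CHGB, SYP and DLL3, reached 1 FPKM in H196, and the epithelial gene CDH1 was below 0.1 FPKM in every group. The 4 epithelial markers together summed to 20.3 to 22.1 FPKM in MRC5_Mo, 21.9 to 24.9 in MRC5_CoH69, 34.7 to 39.6 in MRC5_CoH196 and 0.65 to 1.45 in H196. Endothelial markers were near 0 throughout, and mural markers summed to 108 to 122 FPKM in MRC5. Mean FPKM in MRC5_Mo and MRC5_CoH196 was 2630 and 785 for COL1A1, 1970 and 1190 for COL1A2 and 260 and 54 for COL3A1. POSTN, FBN1 and THY1 were lower too, COL6A3 was higher (820 and 918), and LUM and DCN overlapped between the groups. KRT19 held most of the epithelial sum, at 18.97 to 20.96 FPKM in MRC5_Mo and 31.72 to 37.65 FPKM in MRC5_CoH196. KRT7 was higher too, and EPCAM overlapped (means of 0.197 and 0.21). The part of the lower fibroblast and higher epithelial marker sums of MRC5_CoH196 in the results that follow was not tested. The hypoxia-induced gene VEGFA rose by 3.84 ± 0.061 (log2 fold change ± SE, n = 3 per group) in MRC5_CoH196 against MRC5_Mo, with an adjusted p of 2.68e-25 (edgeR), and CA9 by 7.06 ± 0.17 with an adjusted p of 1.84e-21. ACTA2, the smooth muscle actin of myofibroblasts, fell by 0.46 on the log2 scale in that comparison (adjusted p = 1.22e-07, edgeR). With H69 ACTA2 rose by 0.49 (adjusted p = 2.49e-06, edgeR) and VEGFA by 0.34 (adjusted p = 0.000974, edgeR), and CA9 was not called (adjusted p = 0.459, edgeR). In H196 with MRC5, VEGFA rose by 1.12 (adjusted p = 6.17e-10, edgeR), and ACTA2 was not called (adjusted p = 0.15, edgeR).

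With H196 as partner, all 8 genes changed in the fibroblasts. HGF, PDGFD and PDGFA fell, and PDGFB, PDGFC, PDGFRA, PDGFRB and MET rose. The background was high, since 74.3% of the 12819 genes tested were called at an adjusted p under 0.05, with 37.2% higher and 37.1% lower, so the number called says little about these genes in particular. Among all genes tested, 0.54% had a lower log2 fold change than HGF and 0.41% a lower one than PDGFD. MET and PDGFB lay above 93.3% and 96.9% of all genes tested, and PDGFC and PDGFRA, nearer the middle, above 73.6% and 71.3%. With the additional limit of an absolute log2 fold change above 0.58, which the study used, 6 of the 8 were called against 31.9% of all genes tested. On CPM (counts scaled to a common library total) further scaled by TMM factors, none of the 8 overlapped between the groups, as held for 75.5% of all genes tested. On CPM without these factors PDGFRA overlapped, at 280 CPM in MRC5_Mo replicate 1 and 271 CPM in MRC5_CoH196 replicate 1. The log2 fold changes below come from edgeR on counts scaled by TMM, on which the median of all genes was -0.003. Scaling by library totals alone shifted that median by -0.18, and the called genes split into 3467 higher and 6295 lower in place of 4765 and 4757. The same change of scale took the share of higher genes among those called from 56.3% to 45.6% for MRC5_CoH69 against MRC5_Mo, from 49.3% to 34.4% for MRC5_CoH196 against MRC5_CoH69 and from 60.8% to 33.1% for H196. In these bulk libraries, fewer cells that express a gene and less RNA per cell cannot be told apart.

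**Figure D1:**
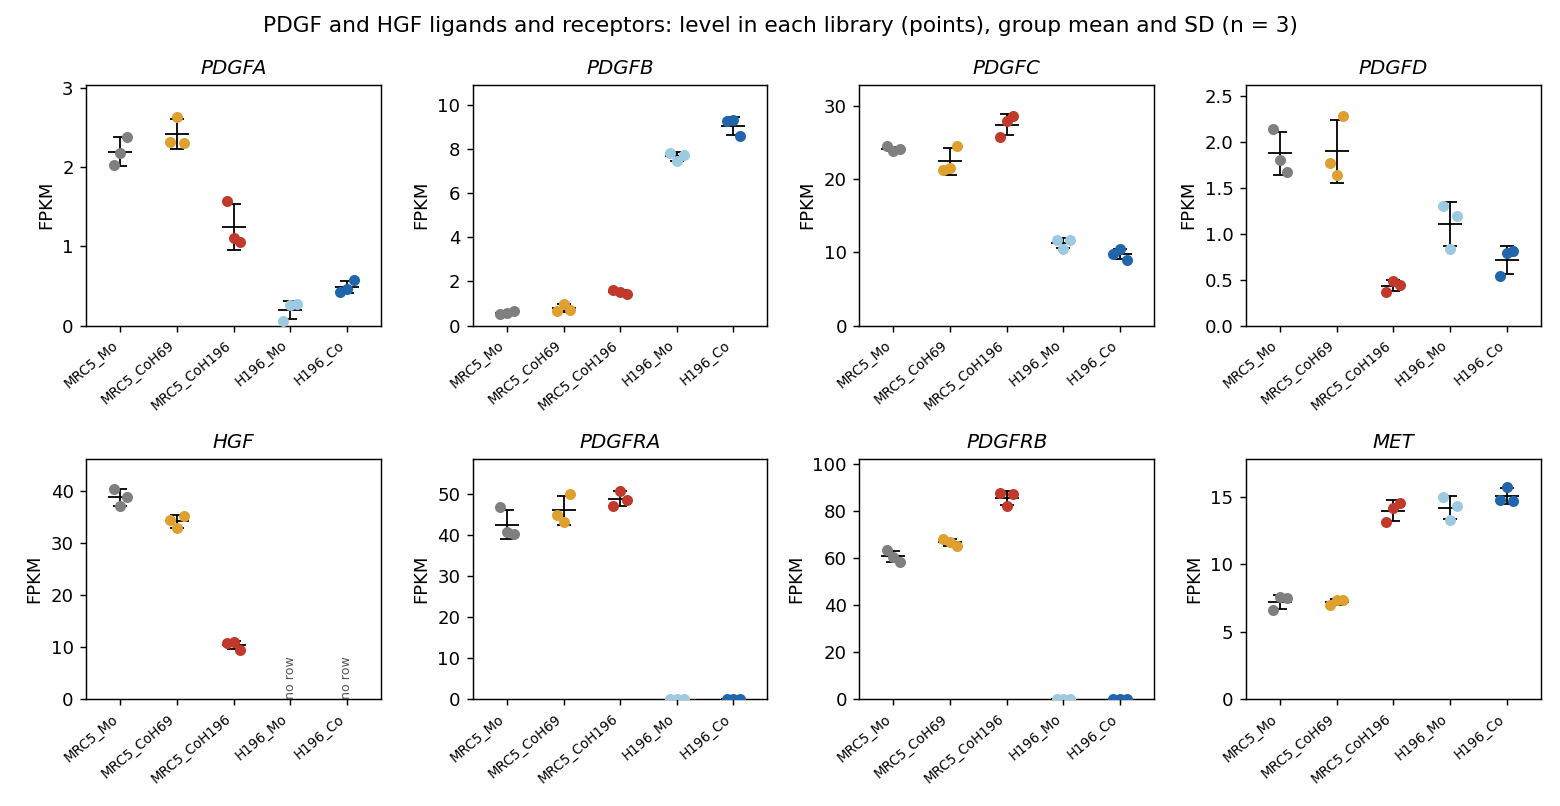
Level in FPKM (linear axis from 0) of the 5 ligand genes and 3 receptor genes in each library of the 5 groups. Points are libraries, horizontal bars are group means and whiskers are 1 SD (n = 3). HGF is low and MET high in the 3 MRC5_CoH196 libraries, PDGFB is highest in H196, and the PDGF receptor genes lie near 0 in H196.

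HGF was the most abundant of the 5 ligand genes in fibroblasts grown alone. Its level was 40.34, 36.98 and 38.85 FPKM in the MRC5_Mo libraries and 34.45, 32.81 and 35.18 FPKM with H69. With H196 it was 10.76, 11.04 and 9.46 FPKM. The MRC5_CoH196 libraries thus lay far below both other groups, on 605 to 717 counts against 2456 to 2821 in MRC5_Mo. The log2 fold change was -1.84 ± 0.063 against MRC5_Mo (SE, n = 3 per group, adjusted p = 1.76e-18, edgeR). Against MRC5_CoH69 it was -1.77 ± 0.063 (adjusted p = 5.01e-18, edgeR). The effect of H69 was not called, at -0.07 with a 95% interval of -0.18 to 0.05 (adjusted p = 0.543, edgeR). In FPKM the MRC5_CoH69 libraries lay just under the MRC5_Mo libraries without overlap, but the adjusted p on log2(FPKM + 1) was 0.129 (limma).

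PDGFC, whose latent product is a ligand of PDGFRA, made up most of the PDGF ligand mRNA in the fibroblasts. It stood at 24.47, 23.79 and 24.11 FPKM in MRC5_Mo and at 25.79, 27.92 and 28.59 FPKM in MRC5_CoH196. With H69 it stood at 21.19, 21.5 and 24.58 FPKM, a range that overlapped that of MRC5_Mo. All MRC5_CoH196 libraries were above all others, by a small margin. The rise over MRC5_Mo was 0.37 ± 0.053 on the log2 scale (SE, n = 3 per group, adjusted p = 8.48e-07, edgeR), and 0.20 with scaling by library totals (adjusted p = 0.00212).

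PDGFD, whose latent product is a ligand of PDGFRB, fell with H196 by an amount near that of HGF in edgeR. It was read at 143, 121 and 111 counts in MRC5_Mo, 120, 108 and 152 with H69 and 25, 32 and 30 with H196. In FPKM the group means were 1.88 ± 0.24 in MRC5_Mo, 1.9 ± 0.34 in MRC5_CoH69 and 0.433 ± 0.06 in MRC5_CoH196 (SD, n = 3). The log2 fold change with H196 was -1.95 ± 0.18 (SE, adjusted p = 3.11e-10, edgeR), and -1.003 in limma on log2(FPKM + 1), a scale that understates changes of low genes. With H69 it was 0.03, with a 95% interval of -0.24 to 0.30.

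PDGFA and PDGFB, the classical chains, moved in opposite directions and were both low in fibroblasts. PDGFA was at 2.02, 2.18 and 2.38 FPKM in MRC5_Mo, 2.31, 2.63 and 2.3 FPKM with H69 and 1.57, 1.11 and 1.05 FPKM with H196. PDGFB was at 0.53, 0.55 and 0.65 FPKM in MRC5_Mo, 0.68, 0.98 and 0.71 FPKM with H69 and 1.6, 1.5 and 1.41 FPKM with H196. For both genes the MRC5_CoH196 libraries stood apart from the other fibroblast groups. With H196 PDGFA fell by 0.67 on the log2 scale (SE 0.16, n = 3 per group, adjusted p = 0.000698, edgeR). PDGFB rose by 1.60 (SE 0.18, adjusted p = 2.41e-08, edgeR), on 73 to 85 counts against 26 to 33 in MRC5_Mo. With H69 the log2 fold change of PDGFB was 0.48 with a 95% interval of 0.05 to 0.91, which did not pass after adjustment over all genes (adjusted p = 0.192, edgeR).

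Because PDGFB was higher in H196 than in MRC5, RNA of the partner was looked for in the fibroblast libraries. 99 genes read at 20 CPM or more in all H196_Mo libraries and under 0.5 CPM in all MRC5_Mo libraries summed to 0.298% to 0.777% of their H196_Mo level in MRC5_CoH196, against 0.108% to 0.134% in MRC5_CoH69. In MRC5_Mo, where the rule kept these genes low, the share was 0.118% to 0.13%. At the highest of these shares H196 would give 0.158 CPM of PDGFB, whereas MRC5_CoH196 held 3.81 to 4.44 CPM. For MET the same share would give 0.63 CPM, whereas 77.7 to 85.1 CPM were measured. Whether the reads of the 99 genes in MRC5_CoH196 came from H196 RNA or from the fibroblasts was not tested. The part of partner RNA in the PDGFB and MET levels was not tested either.

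The receptor genes of the PDGF system were abundant in the fibroblasts. PDGFRB was at 63.32, 60.33 and 58.36 FPKM in MRC5_Mo, 68.15, 66.85 and 64.96 FPKM with H69 and 87.4, 82.15 and 87.01 FPKM with H196. The 3 fibroblast groups did not overlap, with MRC5_CoH196 on top. The rise with H196 was 0.67 ± 0.045 on the log2 scale (SE, n = 3 per group, adjusted p = 1.24e-12, edgeR), and 0.49 with library totals (adjusted p = 6.25e-11). PDGFRB was the only one of the 8 genes called with H69, where 6.7% of all genes tested were called, 3.78% as higher. That rise was 0.15 ± 0.045 (adjusted p = 0.0441, edgeR). The call was lost with DESeq2 size factors (adjusted p = 0.0549), with library totals (adjusted p = 0.0538) and in limma on log2(FPKM + 1) (adjusted p = 0.112). The call was also lost without MRC5_Mo replicate 2 or 3 or without MRC5_CoH69 replicate 1 or 2, with adjusted p-values of 0.186, 0.251, 0.196 and 0.133. The DESeq2 Wald test on all libraries called it (adjusted p = 0.0341).

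PDGFRA was at 46.78, 40.79 and 40.23 FPKM in MRC5_Mo, 45.03, 43.25 and 49.96 FPKM with H69 and 47.22, 50.78 and 48.6 FPKM with H196. The 3 groups were close, and MRC5_CoH69 overlapped both of the others. The rise with H196 over MRC5_Mo was 0.33 ± 0.054 on the log2 scale (SE, n = 3 per group, adjusted p = 6.91e-06, edgeR), and 0.15 with library totals (adjusted p = 0.0149). Against MRC5_CoH69 it was 0.19 (adjusted p = 0.00236, edgeR), and this call was lost with library totals, at 0.04 (adjusted p = 0.568), and in limma on log2(FPKM + 1), at 0.08 (adjusted p = 0.254), and on log2(FPKM + 0.1), at 0.09 (adjusted p = 0.252). With H69 the log2 fold change was 0.13 with an adjusted p of 0.153 (edgeR), and 0.20 with an adjusted p of 0.0162 without MRC5_Mo replicate 1, the highest library of its group.

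MET rose in fibroblasts with H196, to an FPKM range that overlapped that of the cancer line. It was at 6.64, 7.57 and 7.48 FPKM in MRC5_Mo, 6.95, 7.32 and 7.37 FPKM with H69 and 13.11, 14.2 and 14.57 FPKM with H196. The MRC5_CoH196 libraries lay well above the other 6, which overlapped one another. The log2 fold change was 1.08 ± 0.053 against MRC5_Mo (SE, n = 3 per group, adjusted p = 2.44e-15, edgeR). With H69 it was -0.01 with a 95% interval of -0.12 to 0.11. H196_Mo stood at 15, 13.31 and 14.28 FPKM, which overlapped MRC5_CoH196. The MRC5 and H196 tables were made separately, so these levels are set side by side with no test.

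**Figure D2:**
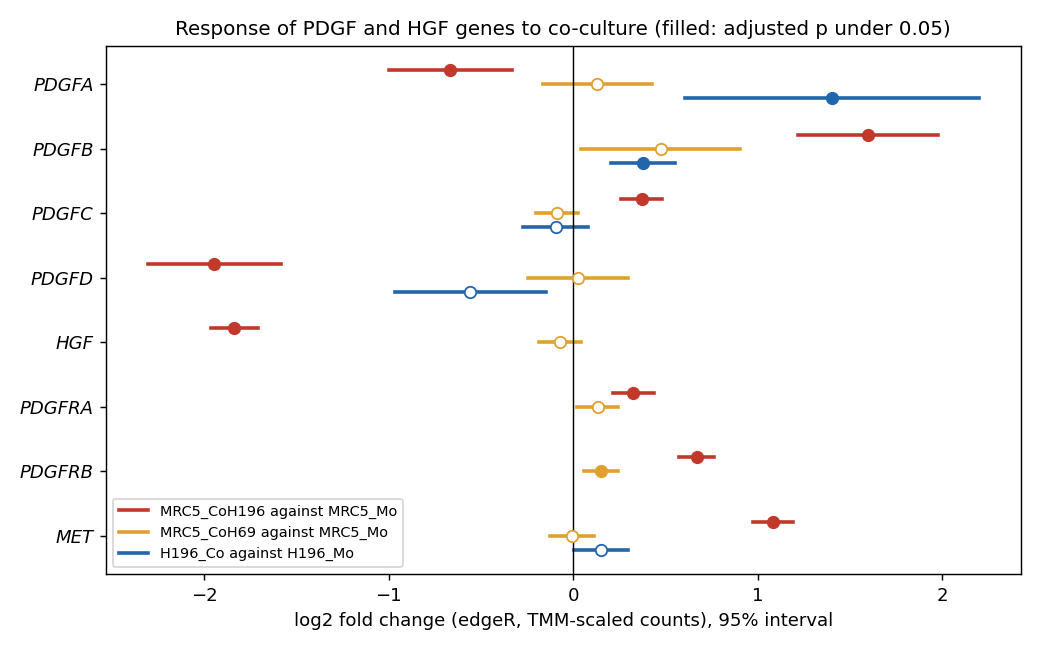
Log2 fold change (horizontal axis, edgeR on TMM-scaled counts) of each gene with H196 or H69 as partner of MRC5 and with MRC5 as partner of H196. Circles are estimates, lines are 95% intervals, and filled circles passed an adjusted p of 0.05. The red estimates for MRC5 with H196 run from -1.95 (PDGFD) to 1.60 (PDGFB), whereas the orange ones for MRC5 with H69 lie between -0.09 and 0.48.

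H69 and H196 were compared directly as partners. All 8 genes were called in MRC5_CoH196 against MRC5_CoH69, where 72.3% of all genes tested were called. This comparison shares the MRC5_CoH196 libraries with the one against MRC5_Mo. Its log2 fold changes were -1.97 for PDGFD, -0.80 for PDGFA, 1.12 for PDGFB, 0.46 for PDGFC, 0.52 for PDGFRB and 1.09 for MET (adjusted p between 2.9e-15 and 9.14e-05, edgeR). Against MRC5_Mo the values were -1.95, -0.67, 1.60, 0.37, 0.67 and 1.08 in the same order.

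Within a fibroblast library, HGF exceeded MET in MRC5 grown alone or with H69 and lay below it in MRC5 grown with H196. The log2 ratio of HGF to MET FPKM was 2.42 ± 0.16 in MRC5_Mo, 2.24 ± 0.073 in MRC5_CoH69 and -0.42 ± 0.18 in MRC5_CoH196 (SD, n = 3). The lowest MRC5_CoH69 value was 2.16 and the highest MRC5_CoH196 value was -0.29. The log2 ratio of PDGFRA to PDGFRB went from -0.51 ± 0.067 in MRC5_Mo to -0.81 ± 0.10 in MRC5_CoH196, again without overlap. For each ratio the exact two-sided permutation test gave p = 0.1 for MRC5_CoH196 against MRC5_Mo, the smallest value that 3 against 3 libraries allow.

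PDGFB rose in H196 cells with MRC5 as partner, and PDGFC, PDGFD and MET were not called. PDGFRA and PDGFRB were under the filter on low counts and HGF had no row, so 5 of the 8 genes were tested. PDGFA was called as well, but it is given as a description, because it entered the fit only through the group in which it was higher. Of the 12806 genes tested, 19.8% were called. PDGFB was at 7.82, 7.46 and 7.71 FPKM in H196_Mo and 9.28, 9.31 and 8.59 FPKM in H196_Co, so that the groups did not overlap. Its rise was 0.38 ± 0.084 on the log2 scale (SE, n = 3 per group, adjusted p = 0.00359, edgeR). In limma on log2(FPKM + 1) it was 0.22 and was not called (adjusted p = 0.0615).

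PDGFA was near the limit of detection in H196, with 2, 10 and 10 counts in H196_Mo and 16, 19 and 21 counts in H196_Co. The groups did not overlap, and the fitted log2 fold change was 1.40 with a 95% interval of 0.60 to 2.20. It was 0.98 without H196_Mo replicate 1 (adjusted p = 0.0713) and 1.3 without H196_Co replicate 3 (adjusted p = 0.0595), and DESeq2 gave it no adjusted p.

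PDGFD was at 74, 52 and 73 counts in H196_Mo and 33, 47 and 49 counts in H196_Co. The H196_Co libraries had the lower counts and FPKM without overlap, although on TMM-scaled CPM the groups overlapped, and the log2 fold change was -0.56 with an adjusted p of 0.0504 (edgeR), just outside the threshold. With library totals it was -0.63 with an adjusted p of 0.0287. PDGFC was at 11.3 ± 0.73 FPKM in H196_Mo and 9.76 ± 0.74 FPKM in H196_Co (SD, n = 3), with a log2 fold change of -0.10 and a 95% interval of -0.27 to 0.08. MET was at 14.2 ± 0.85 and 15.1 ± 0.60 FPKM, with a log2 fold change of 0.15 and a 95% interval of 0.01 to 0.30 (adjusted p = 0.134, edgeR).

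The PDGF receptor genes were nearly unread in H196. PDGFRA had 0, 0 and 2 counts in H196_Mo and 1, 1 and 0 in H196_Co. PDGFRB had 1, 3 and 1 counts in H196_Mo and 2, 1 and 5 in H196_Co. A count of 0 allows up to 0.173 to 0.187 CPM in these libraries, so that change in either gene was not detectable at this depth. 160 genes restricted to MRC5 by the rule above summed to 0.0506% to 0.0561% of their MRC5_Mo level in H196_Co, and to 0.0415% to 0.0429% in H196_Mo, which grew without fibroblasts and where the rule kept these genes low.

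The responses of the lines differed in a joint fit of the 12 libraries of the MRC5 and H196 pair. PDGFB, PDGFC, PDGFD and MET were called, where 49.9% of the 13531 genes tested were called. PDGFA was called as well, but is given as a description. It entered the H196 fit only through the group in which it was higher. The fibroblast response minus the H196 response was -2.09 ± 0.42 on the log2 scale for PDGFA (SE). PDGFA was at -0.67 in MRC5 and, on the few counts above, at 1.40 in H196. The difference between the responses was 1.20 ± 0.18 for PDGFB (adjusted p = 5.6e-06, edgeR), which rose in both lines. The difference was 0.91 ± 0.088 for MET (adjusted p = 4.81e-09, edgeR), -1.41 for PDGFD and 0.45 for PDGFC.

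The make-up of the PDGF ligand mRNA differed between the lines and moved within each. PDGFC was 83.8% ± 0.17 of the summed FPKM of the 4 ligand genes in MRC5_Mo, 81.4% ± 0.96 in MRC5_CoH69 and 89.6% ± 1.48 in MRC5_CoH196 (SD, n = 3). PDGFD went from 6.52% ± 0.76 in MRC5_Mo to 1.41% ± 0.16 in MRC5_CoH196, while PDGFB went from 2.01% ± 0.23 to 4.92% ± 0.50. In H196 PDGFB was 37.9% ± 1.23 alone and 45.3% ± 1.04 with MRC5, and PDGFC 55.7% ± 0.64 and 48.7% ± 1.18. None of these pairs of groups overlapped, with p = 0.1 in each exact permutation test of co-culture with H196 or MRC5 against the line alone. The summed ligand level itself was 28.8 ± 0.42 FPKM in MRC5_Mo and 30.6 ± 1.14 in MRC5_CoH196, and 20.2 ± 1.08 in H196_Mo and 20.02 ± 1.03 in H196_Co.

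**Figure D3:**
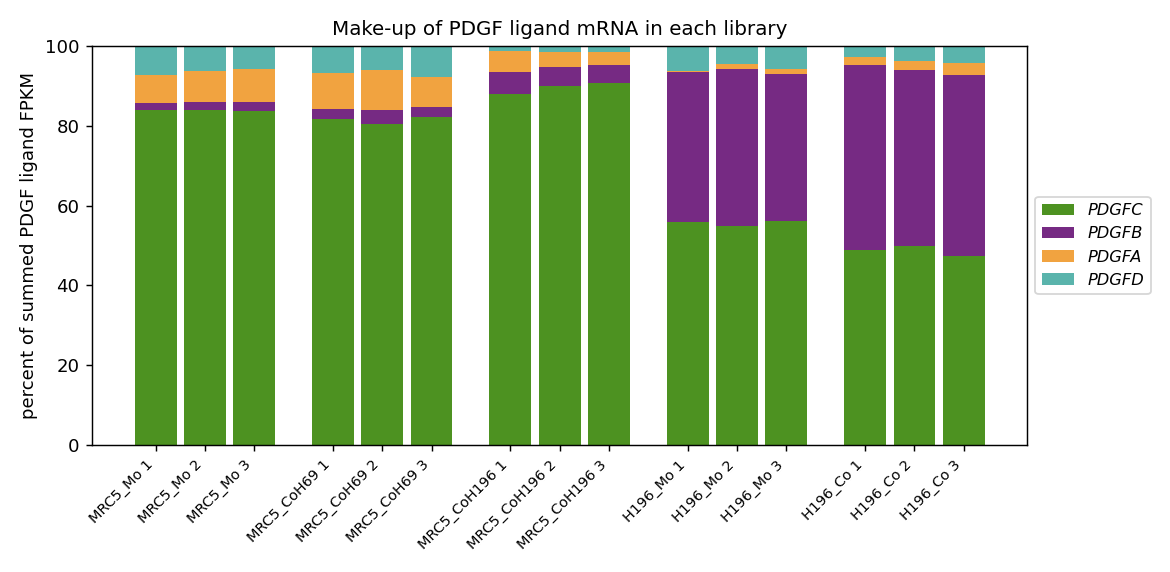
Percent of the summed FPKM of the 4 PDGF ligand genes held by each gene, 1 stacked bar per library. PDGFC holds 80.4% or more in every MRC5 library, and PDGFB holds 36.9% to 46.3% in H196 libraries.

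Set side by side without a test, ligands and receptors were spread unevenly over the partners. In the co-culture of MRC5 and H196, the H196 cells held PDGFB at 9.06 ± 0.41 FPKM and PDGFC at 9.76 ± 0.74 FPKM, and the fibroblasts held PDGFRB at 85.5 ± 2.93 and PDGFRA at 48.9 ± 1.79 FPKM (SD, n = 3). In the other direction the fibroblasts held PDGFC at 27.4 ± 1.46 FPKM, and the H196 cells held PDGFRA at 0.01 and PDGFRB at 0.0267 FPKM. For HGF, the fibroblasts held 10.4 ± 0.84 FPKM in that co-culture, down from 38.7 ± 1.68 alone, and MET was at 15.1 ± 0.60 FPKM in the H196 cells and 14.0 ± 0.76 FPKM in the fibroblasts. Across the groups, PDGFRB ordered as MRC5_CoH196, MRC5_CoH69, MRC5_Mo and then H196, with no overlap between neighbours among the fibroblasts. MET ordered in FPKM as H196_Co, H196_Mo, MRC5_CoH196, MRC5_Mo and MRC5_CoH69. Of these neighbours only MRC5_CoH196 and MRC5_Mo did not overlap in FPKM. On TMM-scaled CPM the MET values of H196_Co and H196_Mo did not overlap either.

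Proteases that process or activate PDGF and HGF were measured in the same libraries, and those tested moved in both directions in fibroblasts with H196. Of 10 listed, 5 passed the filter on low counts, of which 2 rose and 3 fell. These 5 were FURIN, PCSK5, PCSK7, PLAT and PLAU. HGFAC, HPN, ST14, F2 and PCSK6 did not pass the filter in MRC5 and were not tested there. For this list and those that follow, the shares over all genes tested are 37.2% higher and 37.1% lower in MRC5 with H196, 6.7% called in MRC5 with H69 and 19.8% called in H196, and the lists' counts are to be read against these. PLAT, tissue plasminogen activator, which activates PDGF-C, went from 42.0 ± 2.92 to 113 ± 3.96 FPKM (SD, n = 3; log2 fold change 1.61, adjusted p = 4.98e-19, edgeR). PLAU, urokinase, which activates PDGF-D, went from 305 ± 0.65 to 126 ± 3.46 FPKM (-1.10, adjusted p = 1.59e-17, edgeR). With H69 PLAU rose by 0.28 (adjusted p = 5.3e-05, edgeR) and was the only one of the 5 called. The proprotein convertase genes PCSK7 and PCSK5 were at -0.88 and 0.49 on the log2 scale with H196. In H196 the 5 that passed the filter were FURIN, PCSK6, PCSK7, PLAT and PLAU. With MRC5 as partner, PLAU and FURIN, another convertase, rose by 0.23 and 0.27. With library totals edgeR called none of the 5 tested in H196, of which 2 had an unadjusted p under 0.05, while DESeq2 called 2.

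Of 5 genes for inhibitors of such proteases and binders of PDGF, 3 rose and 1 fell in MRC5_CoH196 against MRC5_Mo, where 74.3% of all genes tested were called. SPINT1 and SPINT2, inhibitors of HGF activators, were both low. SPINT1 went from 0.36 ± 0.03 to 0.723 ± 0.064 FPKM (SD, n = 3; log2 fold change 1.18, adjusted p = 6.12e-05, edgeR), and SPINT2 from 0.72 ± 0.17 to 1.29 ± 0.38 FPKM (1.01, adjusted p = 0.00114, edgeR). SPARC, a matrix protein that binds PDGF, fell by 0.42 on the log2 scale from 938 ± 33.6 FPKM. In H196 with MRC5, SPINT2 rose by 1.29, and the other 2 genes tested were not called. With H69 1 of the 5 was called in the fibroblasts, A2M, a protease inhibitor that also binds PDGF, which rose by 0.40.

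Of 7 genes for co-receptors and associated surface proteins, 4 rose and 3 fell in fibroblasts with H196, against the same 74.3% over all genes tested. ITGB3, an integrin chain, went from 7.81 ± 0.11 to 15.3 ± 0.62 FPKM (SD, n = 3; log2 fold change 1.15, adjusted p = 4.31e-15, edgeR), and LRP1, which associates with PDGFRB, rose by 0.68. NRP1, a co-receptor of several growth factors, fell by 0.81 on the log2 scale, and the heparan sulfate proteoglycan SDC1 fell by 0.42. SDC1 moved the other way in H196, where it rose by 0.92 (adjusted p = 3.73e-06, edgeR) together with ITGB3, at 0.57, and 1 more of the 7. With H69 in the fibroblasts ITGB3 rose by 0.62, while NRP1 and SDC1 fell by 0.35 and 0.17 on the log2 scale.

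Of 19 adaptors and enzymes recruited to activated receptors, 13 rose and 2 fell in MRC5_CoH196, where 37.2% of all genes tested were higher and 37.1% lower. The list had a median log2 fold change of 0.28 against -0.003 over all genes. With library totals the counts were 10 and 4 and the median was 0.10. GAB1, the docking protein of MET, and GAB2 each rose, by 1.11 and 1.12, and SHC1 and RASA1 fell by 0.38 and 0.11 on the log2 scale. In MRC5_CoH69 against MRC5_Mo edgeR called none of the 19, of which 5 had an unadjusted p under 0.05, and DESeq2 called 1. In H196 GAB2 rose by 0.43 and CRK fell by 0.23 on the log2 scale.

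Of 15 genes listed for restraint of receptor signalling, ERK feedback or ERK output, 11 rose and 1 fell in MRC5_CoH196 against MRC5_Mo. Over all genes tested, 37.2% were higher and 37.1% lower. The median log2 fold change of the list was 0.52. With library totals these counts were again 11 and 1. SPRY1, a feedback inhibitor of receptor signalling, went from 0.903 ± 0.17 to 3.22 ± 0.24 FPKM (SD, n = 3; log2 fold change 1.98, adjusted p = 9.59e-11, edgeR). LRIG1, a membrane protein that lowers receptor tyrosine kinase levels, went from 7.63 ± 0.41 to 26.4 ± 0.85 FPKM (1.96, adjusted p = 7.68e-21, edgeR). EGR1, an immediate-early gene, fell by 0.69 on the log2 scale. In H196 5 of 14 tested rose and none fell (by DESeq2, 4 rose), among them EGR1 by 0.95 and the ERK phosphatase DUSP5 by 0.74. With library totals 4 of these 14 rose and 1 fell, and the median of the list in H196 went from 0.107 to 0.032. With H69 1 of the 15 rose and 2 fell in the fibroblasts, namely PTPRJ at 0.45, SPRY2 at -0.53 and DUSP5 at -0.33. With library totals 1 rose and 4 fell there.

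Among 8 related receptors and ligands, 5 passed the filter in MRC5, of which 2 rose and 2 fell with H196, where 74.3% of all genes tested were called. KIT, a receptor of the same class as the PDGF receptors, went from 4.43 ± 0.12 to 13.4 ± 0.40 FPKM (SD, n = 3; log2 fold change 1.77, adjusted p = 5.84e-19, edgeR), while its ligand gene KITLG fell by 0.34 on the log2 scale. MST1, which encodes a protein related to HGF, rose by 1.06, and CSF1 fell by 0.54 on the log2 scale. With H69 none of the 5 was called by edgeR or DESeq2, and 3 had an unadjusted p under 0.05 in edgeR. In H196 none of the 4 tested was called by either tool, and none had an unadjusted p under 0.05 in edgeR.

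**Figure D4:**
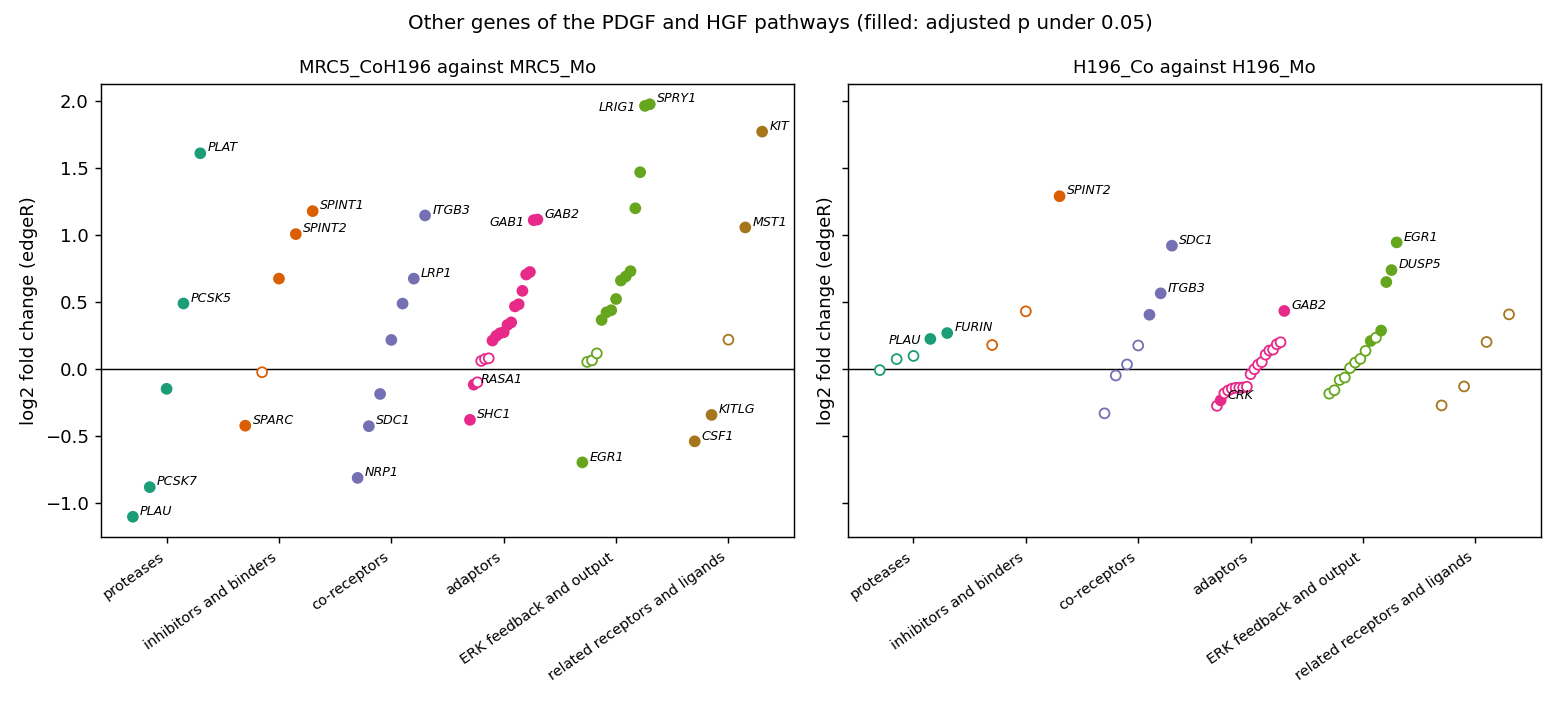
Log2 fold change (vertical axis, edgeR) of the other genes of the PDGF and HGF pathways by list, in MRC5 with H196 (left) and in H196 with MRC5 (right). Each circle is 1 gene, filled where the adjusted p was under 0.05, and genes with the largest called changes are named. Of the 56 genes on the left, 35 were called higher and 12 lower, against 37.2% and 37.1% of all genes tested.

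Over the 9 MRC5 libraries, the genes whose log2 CPM ran most like that of HGF were PIK3R3, EIF3J and TRAFD1, with Pearson's r of 0.999, 0.998 and 0.998. For MET they were CCSAP, ATP13A3 and CHSY1 (r of 0.998, 0.998 and 0.997), and for PDGFRB they were LZTS2, BGN and SH3PXD2A (0.998, 0.998 and 0.996). For PDGFD they were ADAMTS14, ELOVL2 and MRPL35, with r of 0.997, 0.996 and 0.996. The libraries fall into groups, with MRC5_CoH196 apart from the rest, and r mainly follows that split. For PDGFRA, whose groups lay closer, the highest r were 0.987, 0.978 and 0.975, for ARID5B, PRSS12 and RHOBTB3. For the remaining genes the closest were BATF3, ERI3 and ARHGAP1 for PDGFA, GPATCH8, PRRC2B and WDR59 for PDGFB, and WAC, NSG1 and USP30 for PDGFC, with r between 0.976 and 0.993.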

How the data were processed

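RNA-seq of 15 libraries (5 groups of 3) was analysed from the 2 deposited gene tables, 1 per cell line. The authors cleaned the reads with SOAPnuke and aligned the clean reads to the genome (GRCh38.p13) with HISAT and to reference gene sequences with Bowtie2. The submitters' processing notes also name HISAT2 2.1.0, Bowtie2 2.3.4.3 and RSEM 1.3.1, the latter with no stated role. The use of strand in counting is not given in the sources used here, so reads of an antisense gene cannot be told apart. The expected counts deposited by the authors are raw estimates for each gene and library (93.7% and 92.1% of values are whole in the MRC5 and H196 tables), and were rounded. The deposited FPKM values are scaled by gene length and library total and were used to set genes beside each other. The deposited TPM values, which the authors scaled to the same total in every library, served as an alternative. 15 columns of normalized counts and the authors' own fold changes and p-values were not used.

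Counts were analysed in R 4.3.3 with edgeR 4.0.16 (filterByExpr, TMM, quasi-likelihood tests, two-sided, group as the only term) over all genes, in 1 fit of the 9 MRC5 libraries, 1 of the 6 H196 libraries and 1 of 12 libraries for the difference between the responses. A gene was called at a Benjamini-Hochberg adjusted p under 0.05. Intervals of log2 fold changes are at 95% and a count of 0 was taken to allow 3 counts, both for these libraries only. CPM in the text uses library totals unless TMM is named. TMM factors were 0.916 to 0.941 in MRC5_CoH196 and 0.959 to 1.05 in the other libraries. Ratios within a library were compared by exact permutation tests. Replicates differed by more than counting noise in all 15 pairs (mean chi-square per gene 1.89 to 10.8), so none was merged. Alternatives were DESeq2 1.42.0, limma 3.58.1 on log2(FPKM + 1) and log2(FPKM + 0.1), other scalings and filters, leaving out each library, and a replicate block. The fits were tested on simulated counts in which few genes were changed, as many up as down. That setting cannot test the TMM scaling where most genes were called, as in MRC5_CoH196. Named genes are the 8 genes, up to 2 called genes with the largest rise and fall per list, the 3 genes most correlated with each of the 8, and VEGFA, CA9 and ACTA2. Single genes of the marker lists and the genes of the protease list are named as well. 1 gene of the list of inhibitors and binders is not reported here and was left out of its counts. The 8 genes, the lists and the tests were chosen with earlier results of these data known. Promoter windows are from RefSeq (GRCh38.p14), and no coordinate was converted between releases.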

Additional observations from a re-analysis of the deposited data

Results flagged for a closer look

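The response of all 8 genes in MRC5 differed between the H196 and the H69 partner, tested directly between the co-cultured groups (edgeR, 3 libraries per group). MRC5_CoH196 minus MRC5_CoH69 on the log2 scale was -1.77 for HGF, -1.97 for PDGFD, -0.80 for PDGFA, 1.12 for PDGFB, 0.46 for PDGFC, 0.19 for PDGFRA, 0.52 for PDGFRB and 1.09 for MET, where 72.3% of all genes tested were called. For PDGFRA the difference was 0.04 with library totals and 0.08 and 0.09 in limma on log2(FPKM + 1) and log2(FPKM + 0.1), and was not called in any of these. The response to the partner also differed between MRC5 and H196 for PDGFB, PDGFC, PDGFD and MET. The fibroblast response minus the H196 response was 1.20 for PDGFB, 0.45 for PDGFC, -1.41 for PDGFD and 0.91 for MET, where 49.9% of all genes tested were called. For PDGFA the difference was -2.09, given as a description, because PDGFA entered the H196 fit only through the group in which it was higher. PDGFA in H196 rests on 2 to 21 counts per library. Groups of 3 libraries were not examined for single outlying values.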

How the results depend on the processing

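All 8 genes were called in MRC5_CoH196 against MRC5_Mo under every alternative run except the limit of 0.58, under which PDGFC and PDGFRA were not. The limit was applied to the TMM-scaled edgeR fit only. PDGFRB lay under it with library totals, at 0.49, and in limma on log2(FPKM + 1), at 0.49. PDGFA lay inside it in limma on log2(FPKM + 1), at -0.52, and without MRC5_CoH196 replicate 3, at -0.56. With that limit the genes called over the whole table were 4092 in place of 9522 for this comparison, 71 in place of 859 for MRC5_CoH69 against MRC5_Mo, 3618 in place of 9269 between the co-cultured groups (5 of the 8 genes) and 494 in place of 2538 in H196 (1 of the genes, PDGFA). For MRC5_CoH69 against MRC5_Mo limma called 404 genes on log2(FPKM + 1) and 386 on log2(FPKM + 0.1), and none of the 8 (0) was called in either, with DESeq2 size factors, with library totals (added after the data were seen) or with the limit of 0.58. Leaving out 1 library gave 384 to 1015 genes and 0 to 2 of the 8 there, and the small log2 fold changes of PDGFD and MET crossed 0, from -0.124 to 0.132 and from -0.0603 to 0.0299. In H196 leaving out 1 library gave 1559 to 2723 genes and 1 to 3 of the 5 tested, and 1 of the 5 was called by the DESeq2 Wald test, which gave PDGFA no adjusted p, and by limma on log2(FPKM + 0.1). PDGFD in H196 was called by edgeR with DESeq2 size factors (adjusted p = 0.0475), without a filter on low counts (0.0377) and with at least 10 counts in every library (0.044). Limma on log2(FPKM + 1) called it too (adjusted p = 0.0451), as did edgeR without H196_Mo replicate 2 (0.0185) or H196_Co replicate 2 (0.0495). PDGFD was not called without any other library, by the DESeq2 Wald test (adjusted p = 0.115) or by limma on log2(FPKM + 0.1) (0.0522). The cause of these changes was not tested. Same-numbered libraries did not deviate together (correlations of -0.116 to 0.081 in MRC5 and -0.151 to 0.033 in H196), so the numbers are not taken as pairs. With a replicate block the counts were 9412, 769, 9166 and 2076 genes, in the order above, and 6597 in place of 6757 for the difference between the lines, with no call among the 8 genes changed. Depth limits PDGFA, PDGFRA and PDGFRB in H196, which were read at 0 to 21 counts.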
